A study of Mus musculus with 6 samples.

Results

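The genes described here are 9 members of the LIF-STAT3 pathway and the Pim kinase family, namely Lifr, Il6st, Stat3, Socs3, Bcl3, Cish, Pim1, Pim2 and Pim3. They were taken by gene symbol, and all 9 of 9 were measured among 22180 genes. Socs3, Cish and Pim1 were each read by 2 probe sets and the other 6 by 1, so 12 probe sets stand behind them. Total RNA came from EB3 mouse embryonic stem cells (mESC) and from epiblast-like cells (EpiLC) derived from them, hybridised to Mouse Gene 2.0 ST arrays. The mESC were kept in N2B27 with LIF and BMP4. The EpiLC had been induced for 2 days on serum-coated dishes, in N2B27 containing ActivinA at 20 ng/ml and bFGF at 12 ng/ml. Each state had 1 untreated sample, 1 given the GSK3 inhibitor CHIR99021 (CHIR) at 3 µM for 24 hours, and 1 given CHIR at that dose together with 1 µM of the MEK inhibitor PD0325901 (PD) for 24 hours. GSK3 marks β-catenin for destruction, and MEK activates the kinase ERK. PD was never given alone, and all samples come from 1 cell line. The 6 groups thus hold 1 array each, and a difference between 2 arrays has no error of its own.

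LIF binds its receptor LIFR, which pairs with gp130, the protein encoded by Il6st. Janus kinases bound to these receptors phosphorylate STAT3, which enters the nucleus and switches on target genes, and in mouse stem cells this pathway sustains self-renewal. Among its targets Socs3 feeds back on the receptor, Bcl3 is an atypical IκB protein that acts in the nucleus with NF-κB subunits, and Pim1 and Pim3 encode serine/threonine kinases that promote survival. Cish, a relative of Socs3, is best known as a target of STAT5, and Pim2 is the remaining kinase of the Pim family.

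STAT dimers bind palindromes of the form TTCNNNGAA, of which TTCCNGGAA is a tighter version. Both read alike on either strand, and every match to the second is also a match to the first. They were searched in windows of 300 bases, from 250 before to 50 after a transcript start (RefSeq, GRCm38.p6), as given in a table that does not hold every annotated start. All 9 members had at least 1 window, 11 in all, but for Lifr, Stat3, Socs3 and Bcl3 none was set at the outermost start of the gene. TTCNNNGAA was found in 2 of the 11 windows of the members, from 2 of the 9 genes, and in 8.30% of 32851 windows over all genes. TTCCNGGAA was found in 1 of the 11, that of Cish, and in 1.15% of all windows. The matching stretches are shown because they belong to the 2 members of the SOCS family, whose values are set side by side further on. The Socs3 match lies 154 bases before the start of its window's transcript, on chromosome 11 from 117969512 to 117969520, minus strand. That position is inside the annotated gene, which spans 117966079 to 117970336. The Cish matches lie on chromosome 9, plus strand, at 107296659 to 107296667, where the first begins at the annotated start, and at 107296670 to 107296678. Capitals mark the matches.
Socs3: agaaaccagccTTCTTAGAAgggagggggg
Cish: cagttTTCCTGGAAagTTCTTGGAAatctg
A match in these letters is not a measured binding site, and a window without one says nothing about STAT3 at that gene.

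The values are linear intensities as deposited, with a lowest value of 16 on every array and array medians from 60.55 to 65.17. Differences near the lowest value are compressed. The cells were checked against markers. All 7 naive markers (among them Zfp42, Esrrb and Klf4) were measured, and their mean log2 intensity was 9.36 to 9.88 in mESC and 5.57 to 6.14 in EpiLC. The 5 formative markers, which define EpiLC, averaged 10.02 in untreated EpiLC and 7.77 in untreated mESC. Their mean was lower with the inhibitors in both states, at 6.71 and 6.36 in mESC and at 8.42 and 7.04 in EpiLC. The mean of EpiLC with CHIR and PD was thus below that of untreated mESC, though above that of mESC with CHIR and PD. Otx2 (59.0 against 410.5 in untreated mESC) and Dnmt3b (788 against 2327) were lower on that array. Fgf5 (39.4 against 36.0), Pou3f1 (145.5 against 122) and Sall2 (147 against 119.5) were slightly higher. From untreated EpiLC, Fgf5 had gone from 1259 to 39.4 and Otx2 from 1025 to 59.0. The formative mean of that array goes against its label, its single markers being divided, while its naive markers were low as in the other EpiLC. The 3 general pluripotency genes averaged 8.49 to 10.77 in all arrays. The 5 measured streak and mesoderm markers summed to an intensity of 8549 in EpiLC with CHIR, against 509.8 to 824.8 in the other EpiLC and 354.9 to 672.2 in mESC, and the 5 primitive endoderm markers to 1231 there against 328.4 to 371.6 elsewhere. The 7 fibroblast markers summed to 354.8 to 385.9 in mESC and 452.5 to 650.2 in EpiLC. Their part in the results below was not tested, and in bulk RNA fewer cells of a type and less RNA per cell cannot be told apart.

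Among the members, the receptor genes, Stat3 and the targets Socs3, Bcl3 and Pim3 were lower in EpiLC than in mESC. In the wider list of 11 LIF-responsive genes described further on, 4 fell. In a limma fit of cell state plus treatment over the 6 arrays, 6 of the 9 members fell in EpiLC (Lifr, Il6st, Stat3, Socs3, Bcl3 and Pim3), where 4.15% of all genes fell. Pim2 rose, and 4.15% of all genes rose. Cish and Pim1 did not pass the test. The median log2 difference over the 9 members was -1.29, against -0.02 over all genes. The threshold was an adjusted p of 0.05 over all genes, and without moderation of the variances 0 members passed. Without the CHIR with PD pair, which holds the EpiLC array with the lowest formative marker mean, the same 7 members passed. Cell state and culture medium, LIF included, cannot be told apart in this design.

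Among the receptors, Lifr was at an intensity of 442.5, 355 and 342 in mESC (untreated, CHIR, CHIR with PD, the order used throughout) and at 141.5, 121 and 66.5 in EpiLC. The lowest mESC array was thus well above the highest EpiLC array. EpiLC were 3.61-fold lower (fitted log2 difference -1.85, SE 0.18, limma adjusted p = 0.00568). Il6st, the signalling chain shared by the whole cytokine family, was at 814, 789 and 1093 in mESC and at 268, 399 and 449 in EpiLC. Again the states did not overlap, and EpiLC were 2.45-fold lower (log2 difference -1.29, SE 0.14, limma adjusted p = 0.00803).

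Stat3 had nearly the same level in the 3 mESC samples, at 1007, 1044 and 1040, an SD of 0.03 on the log2 scale. In EpiLC it was at 257, 416 and 451, with an SD of 0.44. The untreated EpiLC array was the lowest of the 6 and both inhibitor-treated EpiLC arrays lay between it and the mESC. Over the 3 treatments Stat3 was 2.83-fold lower in EpiLC (SE 0.17 as log2, limma adjusted p = 0.00845).

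**Figure D1:**
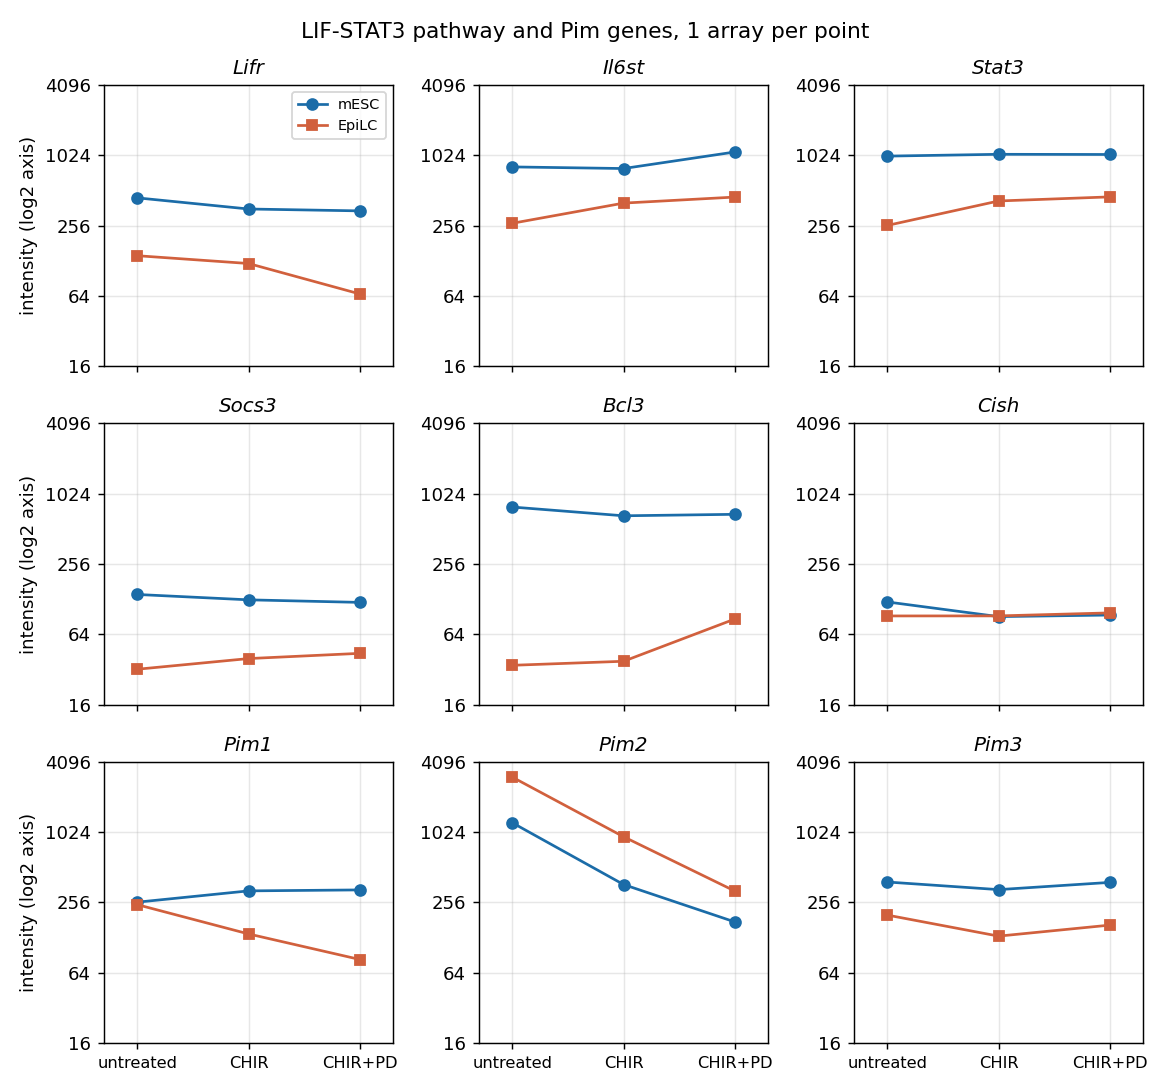
Intensity of each of the 9 genes (log2-scaled axis) in untreated, CHIR-treated and CHIR with PD-treated cells, with circles for mESC and squares for EpiLC and 1 array per point (symbols with 2 probe sets are averaged on the log2 scale). The mESC points lie above all EpiLC points for 7 genes, Cish overlaps, and Pim2 declines along the treatments in both states.

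Of the targets, Bcl3 had the largest state difference among the members. It was at 786, 661 and 681 in mESC and at 34.7, 37.6 and 86.6 in EpiLC. The untreated EpiLC value is close to the lower quartile of that array, 34.5, so the ratio there is compressed. EpiLC were 14.6-fold lower over the treatments (log2 difference -3.87, SE 0.29, limma adjusted p = 0.00313). The size depends on the treatment of dim values, the log2 difference being -2.94 when 16 was subtracted from the intensities and 64 added, and -4.31 with 4 added, and the call held in both.

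Socs3 averaged 140, 126 and 120 in mESC and 32.1, 39.7 and 44.0 in EpiLC, with no overlap. It fell by 1.75 in EpiLC (SE 0.15, limma adjusted p = 0.00474), a call that held with 64 or 4 added after subtracting 16 (log2 differences of -1.07 and -2.25) and with the brighter probe set alone (-2.17). Its 2 probe sets had the same direction in all 3 pairs but different sizes. The brighter one gave log2 differences of -2.57, -2.23 and -1.71, and the dimmer one, which lay between 20.0 and 26.4 in EpiLC and so under the lower quartile of each of those arrays (32.5 to 34.5), gave -1.68, -1.11 and -1.19.

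Cish averaged 121, 90.6 and 93.5 in mESC and 91.9, 92.0 and 97.6 in EpiLC, so untreated mESC stood highest and the other 5 arrays lay within a narrow range. The state difference was -0.11 (SE 0.13, limma adjusted p = 0.685). The probe sets disagreed, since without inhibitors the brighter one was at 205 in mESC and 113 in EpiLC, while the dimmer one lay between 64.7 and 74.6 on all arrays.

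The mESC and EpiLC arrays did not overlap for 7 of the 9 members, the 6 that fell and Pim1, all with EpiLC lower. Over all genes 14.4% had EpiLC below mESC without overlap. With 3 arrays against 3 an exact two-sided permutation test cannot go below 0.10, so no such p is given for single genes. In the untreated pair 5 members (Lifr, Il6st, Stat3, Socs3 and Bcl3) were at least 2-fold lower in EpiLC, against 2.3% of genes, and Pim2 was at least 2-fold higher, against 1.47%. Under CHIR 6 were lower, against 2.63%, Pim1 and Pim3 now among them and Il6st just short at -0.98, while Pim2 was higher, against 2.45%. Under CHIR with PD 7 were lower, against 3.11%.

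**Figure D2:**
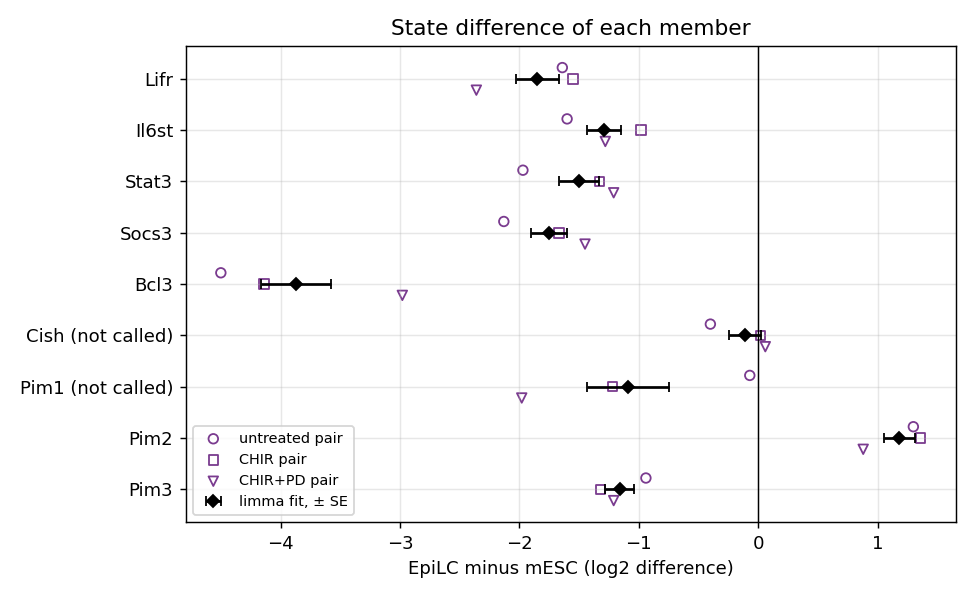
Log2 difference EpiLC minus mESC for each gene, with the limma estimate as a diamond, its SE as a bar, and the 3 single-array pairs as open symbols. Bcl3 lies farthest to the left at -3.87, Pim2 is to the right of 0 at 1.18, and the 3 pairs of Pim1 spread from -0.07 to -1.98.

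The size of the state difference varied with treatment. For Stat3 the log2 difference between the states was -1.97 untreated, -1.33 under CHIR and -1.21 under CHIR with PD. For Socs3 it was -2.13, -1.67 and -1.45, and for Bcl3 it was -4.50, -4.14 and -2.98. In these genes both treated EpiLC arrays were above the untreated one, and the mESC arrays differed less. For Lifr the values were -1.64, -1.55 and -2.36, and EpiLC with CHIR and PD was the lowest of all 6 arrays. Each of these values rests on 1 array per condition, and whether the treatment response differs between the states cannot be tested.

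The 3 Pim kinases had 3 different patterns. Pim3 was at 382, 329 and 379 in mESC and at 199, 131 and 163 in EpiLC. In each state the CHIR array was the lowest, and the states did not overlap. EpiLC were 2.23-fold lower (log2 difference -1.16, SE 0.12, limma adjusted p = 0.00631).

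Pim1 averaged 256.5, 320.5 and 327 in mESC and 244.5, 137 and 82.9 in EpiLC. The untreated samples were nearly equal, at a log2 difference of -0.07, and the difference was -1.22 with CHIR and -1.98 with CHIR and PD. Over the 3 treatments the difference was -1.09 (SE 0.34, limma adjusted p = 0.124). It depended on the arrays used. Without the untreated pair it was -1.60 and passed the test (limma adjusted p = 0.0323), without the CHIR pair it was -1.02 and without the CHIR with PD pair -0.65 (limma adjusted p = 0.283 for both). Both probe sets showed this pattern, from untreated to CHIR with PD the brighter going by 0.46 in mESC and -1.77 in EpiLC and the dimmer by 0.24 and -1.36.

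Pim2 was lower with the inhibitors in both states. It was at 1229, 363 and 174 in mESC and at 3021, 932 and 319 in EpiLC. At each treatment EpiLC lay above mESC, by 1.30, 1.36 and 0.88 on the log2 scale, and in the fit it was 2.26-fold higher in EpiLC (log2 difference 1.18, SE 0.13, limma adjusted p = 0.00817). The ranges of the states still overlapped, because the treatment differences were larger than that between the states.

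With CHIR and PD against untreated cells, Pim2 fell by 3.03 (SE 0.16, limma adjusted p = 0.018), which is 8.19-fold. It was 1 of 6 genes that fell in this comparison, 0.0271% of all genes, the others being Spry4, Dusp4, Dusp6 and Etv4, which are known as ERK-dependent genes, and Tmem59l. For Spry4 the combined difference of -4.01 was made up of -0.02 at the CHIR step and -3.99 when PD was added, and for Dusp4 the steps were 0.47 and -3.31. For Tmem59l they were -0.45 and -2.16 and for Pim2 -1.73 and -1.31, so both of these genes were lower at each step. The call for Pim2 was lost when 64 or 4 was added after subtracting 16 (limma adjusted p = 0.0862 and 0.0941) and without moderation (adjusted p = 0.493), with log2 differences of -2.79, -3.10 and -3.03.

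Taken per state, the log2 difference of Pim2 with CHIR was -1.76 in mESC and -1.70 in EpiLC, and that on adding PD was -1.06 and -1.55. It was at least 2-fold lower at each of these 4 steps, as was 1 other gene, Enpp3, of all those measured. This count was made after the values had been seen, and with 64 added after subtracting 16 the PD step of Pim2 in mESC no longer reached 2-fold. The formative marker mean given above was also lower at each of these steps, and its part in the values of Pim2 was not tested.

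**Figure D3:**
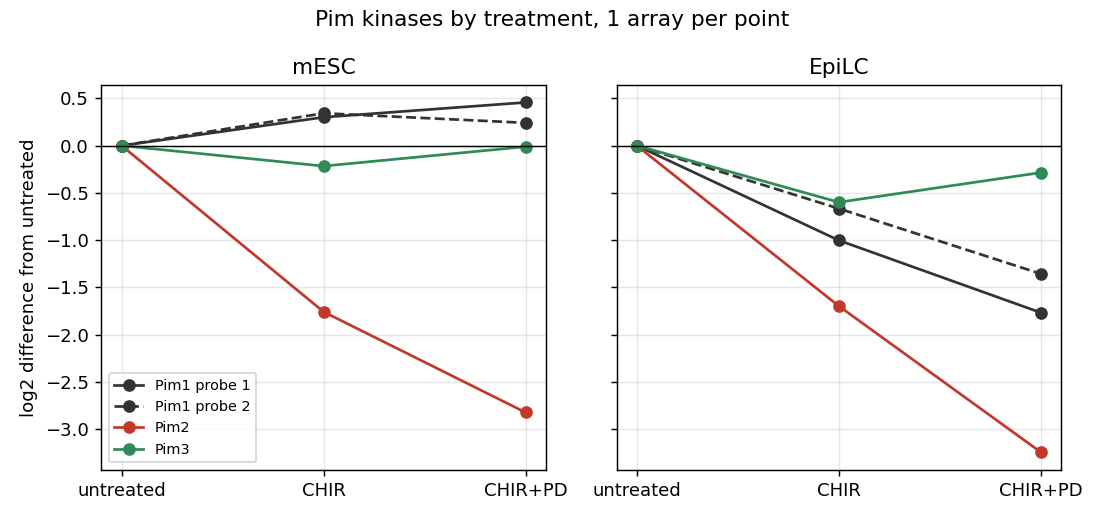
Log2 difference from the untreated array of the same state for Pim1 (2 probe sets, solid and dashed), Pim2 and Pim3, in mESC (left) and EpiLC (right), with 1 array per point. Pim2 reaches -2.82 in mESC and -3.24 in EpiLC, whereas Pim1 lies above 0 in mESC and below 0 in EpiLC on both probe sets.

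Over both states, no member passed the limma threshold for CHIR against untreated, where 0.0% of all genes fell (smallest limma adjusted p = 0.28). At an unadjusted level of 0.05, 2 members were below (Pim2 and Pim3), beside 7.27% of all genes, and 0 members were called with trend and robust moderation. For CHIR with PD against CHIR, 0 members passed, beside 0.018% of genes that fell, and 1 member, Pim2, was below the unadjusted level, beside 5.77% of genes. The fitted values for Pim2 were nevertheless among the most extreme, being the 2nd smallest p for CHIR and the 10th for added PD of 22180 genes, with limma adjusted p = 0.493 and 0.367.

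In mESC, Pim2 was the single member that differed at least 2-fold, being lower with CHIR (0.153% of genes lower), with PD added (0.523%) and with the combination against untreated (0.848%). The differences of the other 8 members lay between -0.42 and 0.47 in these comparisons. Il6st went from 789 to 1093 when PD was added, and Cish went from 121 to 90.6 with CHIR.

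In EpiLC, with CHIR, 1 was at least 2-fold lower, Pim2 (0.929% of genes lower). Log2 differences were 0.70 for Stat3, 0.57 for Il6st, -0.83 for Pim1 and -0.60 for Pim3. This is the array with the high streak and mesoderm marker sum given above, and the part of those cells in the values was not tested. When PD was added, Bcl3 went from 37.6 to 86.6 (1.04% of genes at least 2-fold higher), Pim2 was again lower (1.01%), and Lifr went from 121 to 66.5, short of 2-fold.

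Against untreated EpiLC, the combination left Lifr, Pim1 and Pim2 at least 2-fold lower (1.49% of genes) and Bcl3 at least 2-fold higher (2.62%). The sum of the streak markers was not raised on that array, at 509.8 against 824.8 in untreated EpiLC. Stat3 was higher by 0.81, Il6st by 0.75 and Socs3 by 0.45. Even so, all 3 remained below their lowest mESC value. No member went at least 1.5-fold in opposite directions in the 2 states, neither with CHIR (0.104% of genes), nor with PD added to CHIR (0.167%), nor with the combination (0.316%). Comparisons against untreated cells and against CHIR share arrays, so their values are not independent of each other.

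Of the lists of genes around the pathway, none had a median state difference beyond -0.28 or 0.15. In the state comparison 4.15% of all genes rose in EpiLC and 4.15% fell. Of 9 measured gp130 ligands and receptors 1 rose and 0 fell in EpiLC (median -0.17). The one that rose was Cntfr, the receptor subunit that binds CNTF and joins LIFR and gp130. It went from 153, 117 and 128.5 in mESC to 429, 453 and 706 in EpiLC (log2 difference 1.96, SE 0.19, limma adjusted p = 0.00577). Lif itself lay between 157 and 240 on all arrays, at a difference of -0.20 (SE 0.11, limma adjusted p = 0.346). Osm was at -0.68 and Il6ra at -0.46 without passing the test, and neither did Il6 at -0.41, which lay between 23.4 and 36.2 on all arrays.

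Of 8 measured Janus kinases and other STATs 1 rose and 1 fell (median 0.15). Stat5b, a mediator of cytokine and growth hormone signals, went from 61.8, 101 and 110 in mESC to 127, 239 and 247 in EpiLC, and rose by 1.15 (SE 0.10, limma adjusted p = 0.00502). Stat3, by contrast, had fallen. Stat4 fell by 0.68 (limma adjusted p = 0.0358), and Tyk2 was at -0.43 without passing the test. Jak2 was at 107 in untreated EpiLC and at 261 and 299 under the inhibitors, with a state difference of 0.73 that missed the test (limma adjusted p = 0.118), and Jak1 was at 0.17.

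Of 14 inhibitors of JAK-STAT signalling 1 rose and 2 fell (median -0.04). Pias2, a SUMO ligase, fell by 0.98 (SE 0.10, limma adjusted p = 0.00607), and Pias4 fell by 0.50. Ptpn11, which encodes the phosphatase SHP2 that links gp130 to ERK, rose by 0.49 (limma adjusted p = 0.0396). Socs2 was at 469, 449 and 311 in mESC and at 411, 263.5 and 89.8 in EpiLC, with a state difference of -0.92 that did not pass (limma adjusted p = 0.13).

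Of 11 genes known to respond to LIF in stem cells 4 fell and 0 rose in EpiLC (median -0.28), where 4.15% of all genes fell. The 4 were Tfcp2l1 (-4.22), Klf4 (-3.41), Icam1 (-1.77) and Klf5 (-1.64), the Klf genes and Tfcp2l1 being naive pluripotency factors and Icam1 a cell adhesion gene. Klf4 and Tfcp2l1 were also among the naive markers by which the cells were checked, so their fall is not separate from that check. The other 7 of the 11 genes did not pass, Junb being at -0.03 and Fos at -0.12. Of 5 measured NF-κB genes 1 rose, Nfkb2 by 0.58 (limma adjusted p = 0.0387), whose product p52 is a partner of BCL3, and 0 fell (median -0.10). Rel was at 0.79, Nfkbia at -0.67 and Relb at -0.40, none past the test. With CHIR and PD against untreated EpiLC, 3 of these 5 were at least 2-fold higher, against 2.62% of all genes. They were Nfkbia (1.55), Nfkb2 (1.07) and Rel (1.06), and the median was 1.06 against -0.05 over all genes. These values rest on 1 array against 1. Bcl3 was higher on the same array, and a link between them was not tested. In mESC the median was 0.41 and 0 of the 5 reached 2-fold, where 137 of 22180 genes were at least 2-fold higher. Nfkb2 (0.93) and Nfkbia (0.83) were not far short of it there, and Rel was at 0.41. No gene of these lists passed the limma threshold in the comparisons between treatments.

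**Figure D4:**
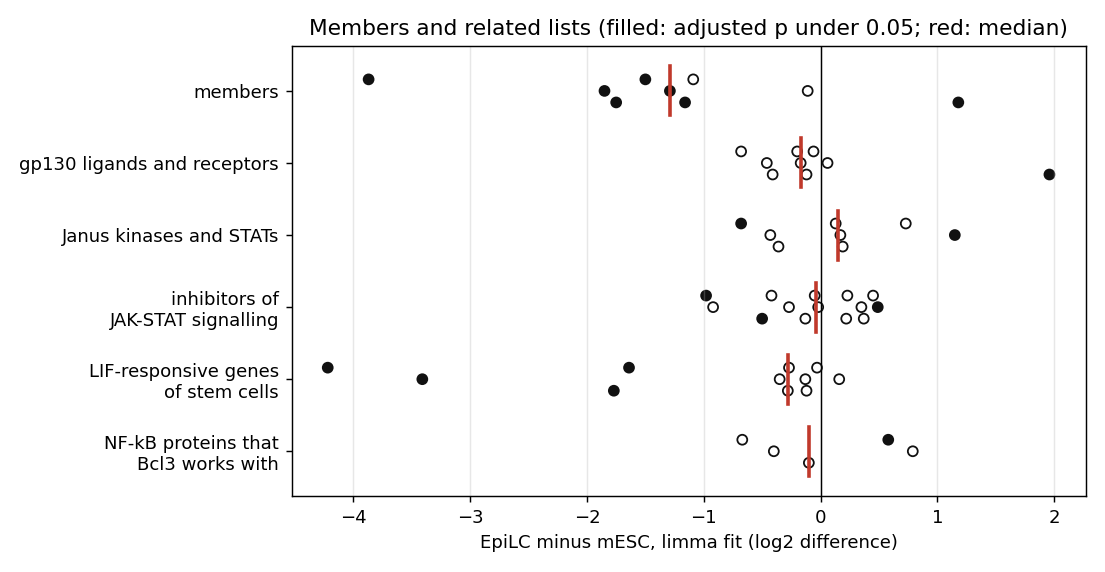
Limma log2 difference EpiLC minus mESC for the 9 members and for 5 lists of related genes, with 1 circle per gene, filled where the adjusted p is under 0.05, and a red line at each median. The members' median is -1.29 and those of the lists lie between -0.28 and 0.15.

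Patterns like those of the members were sought among 2798 named genes with a log2 range of at least 1, by Pearson correlation of log2 intensities over the 6 arrays. These arrays share 2 states and 3 treatments, so genes that differ strongly between the states reach high values with little else in common. The closest genes were Ms4a10 for Lifr (r = 0.997), Slc6a6 for Il6st (r = 0.997), Cep70 for Stat3 (r = 0.995), Jup for Socs3 (r = 0.995), Irak3 for Bcl3 (r = 0.995), Pou2f3 for Pim1 (r = 0.995) and Pole4 for Pim3 (r = 0.996). Icam1 was among the 3 closest of both Socs3 (r = 0.993) and Bcl3 (r = 0.993). For Pim2 they were Nectin1 (r = 0.990), Otx2 (r = 0.986) and G2e3 (r = 0.985), Otx2 being at 410.5, 56.2 and 40.2 in mESC and at 1025, 310 and 59.0 in EpiLC. For Cish the closest was Ripply1 (r = 0.963), which like Cish was highest in untreated mESC.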

How the data were processed

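Each of the 6 cultures gave 1 array, and the deposited table gives the intensity of each probe set on a linear scale. The authors used GeneSpring GX 11.5, per the series' design text. The lowest values, lower quartiles and medians of the arrays are nearly equal, as after normalization. The highest intensity was 22998 in EpiLC with CHIR, against 9894 to 10197 on the other arrays. The normalization method and the genome build are not given in the sources used here. Of 33793 probe sets, the 23521 with 1 gene symbol in the platform annotation were averaged per symbol on the log2 scale (22180 genes, no dim filter, no constant added), and 1814 with several symbols and 8458 without one were left out. The additive model of state plus treatment was fitted with limma 3.58.1 in R 4.3.3 (lmFit, eBayes) on all genes, with 2 residual degrees of freedom and Benjamini-Hochberg adjustment over all genes. What is left over holds any unequal response of the states to a treatment together with array and culture noise, which 1 array per group cannot separate. The SE and p-values rest on this, not on a spread between replicates. The fit was tested on simulated data. The other 9 comparisons set 1 array against 1. The members and lists were chosen with earlier results of these data known. All members were described; of each list, up to 4 genes with the largest state difference were named, Lif, Jak1, Junb and Fos being added after their values were seen. Some listed genes are not reported here. Alternatives were the moderation, 16 subtracted and a constant of 4 or 64 added, quantile normalization, a filter at an intensity of 100, the brightest probe set per symbol, and leaving out each treatment pair.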

Additional observations from a re-analysis of the deposited data

Results flagged for a closer look

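Some members went in opposite directions in mESC and EpiLC under the same treatment, 1 array against 1 in each state. None of these differences was tested, and with 1 array per condition none can be, so small ones may be noise. Gaps are given as the response in EpiLC minus that in mESC. The widest was that of Pim1 for the combination against untreated, at -1.91 (0.35 in mESC, -1.56 in EpiLC). Pim1 also had a gap of -1.16 for CHIR (0.32 and -0.83). For PD added to CHIR its gap was -0.76, with only 0.03 in mESC. Members that went the same way in both states are not listed, such as Bcl3 with PD added (0.04 in mESC, 1.20 in EpiLC). For Bcl3 the gap was 1.52 with the combination (-0.21 in mESC and 1.32 in EpiLC) and 0.36 with CHIR. For Socs3 it was 0.46 with CHIR, 0.22 with PD added and 0.68 with the combination. Il6st had a gap of 0.62 with CHIR and Cish one of 0.46 with the combination.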

How the results depend on the processing

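Over 36 log2 differences (9 members in 4 fitted comparisons) and 306 alternative values, 295 kept their side of the threshold, 10 lost and 1 gained a call, and no called value changed sign. Most of the 36 were uncalled in the main fit, at a limma adjusted p of 0.124 or more, so this count says little about the called values. Without moderation, 0 members passed in EpiLC against mESC (7 otherwise) and 0 in CHIR with PD against untreated, as ordinary least squares leaves 2 residual degrees of freedom. In the latter comparison constants of 64 and 4 also gave 0, and the cause was not tested. With the 9 other alternatives 7 members passed between the states, or 8 without the untreated pair. Over all genes that count was 1841, and 0 without moderation, 1016 with a constant of 4, 945 without the CHIR pair and 1209 without the CHIR with PD pair. For CHIR with PD against untreated it was 6, and 53 with trend and robust moderation, 48 without the CHIR pair, 1 with either constant and 0 without moderation. For PD added to CHIR it was 4, and 7, 1 (constant of 64) and 0, and for CHIR 0, and 1 without the CHIR with PD pair. The number of members at least 2-fold different became 0 for PD added in mESC, 1 for PD added in EpiLC and 2 for the combination in EpiLC with a constant of 64, which compresses every ratio, and 2 for CHIR in EpiLC with the brightest probe set, where Pim1 was added. 1 array per condition limits every treatment value. In EpiLC the dimmer Socs3 probe set lay under the lower quartile of each array. Bcl3 lay just above it there, except with CHIR and PD (86.6).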
